A study of Arabidopsis thaliana with 12 samples.

Results

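WUS and CLV3 are the homeobox gene and the peptide gene at the core of the stem cell circuit of the shoot tip, and they are 2 of the 26702 genes listed for these seedlings. They were chosen by locus (AT2G17950 and AT2G27250), with earlier results of these data known. Both passed the filter on low values that 23225 genes passed. The samples were Arabidopsis thaliana seedlings carrying mutations in clv3 epfl1 epfl2 epfl4 epfl6, at 3 days post germination, labelled as shoots, and every group carried all 5 mutations. Poly(A) RNA was sequenced from 12 libraries, 3 per group, each made from 10 seedlings kept in 1 ml of liquid medium.

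Mock seedlings received buffer. EPFL6 seedlings received 8.7 µl of a 10 µM solution of the peptide, which computes to 86.2 nM in the medium. Cycloheximide (CHX) seedlings were held in 10 µM of this translation inhibitor, given 10 minutes before buffer, and CHX plus EPFL6 seedlings received the peptide after the same pretreatment. The alleles and the time from peptide to harvest are not given in the sources used here. Because the plants are clv3 mutants, CLV3 values are reads over a mutated locus and do not show that a working peptide was made.

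WUS encodes a homeodomain protein made in the organizing centre beneath the stem cells. The protein moves upward and activates CLV3, and the secreted CLV3 peptide acts through the receptors CLV1, CLV2 with CRN, and the BAM kinases to restrict WUS. EPFL6 is a secreted peptide read by the ERECTA family of receptor kinases, which also limit WUS and CLV3 in the meristem. The design asks which transcript responses to the peptide occur while translation is inhibited.

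WUS lies on chromosome 2 of TAIR10.1 at 7808871 to 7810811 on the minus strand, with 3 exons and 1248 exonic bases. CLV3 lies at 11664978 to 11665797 on the same strand, with 3 annotated transcripts. The exons of these transcripts together cover all 820 bases of the locus, and reads from spliced and unspliced CLV3 were not separated. No annotated gene overlaps either locus. The 250 bases before each annotated start are shown because the transcripts of both genes are compared throughout. They are written 5′ to 3′ on the gene's strand, from RefSeq TAIR10.1, with each TAAT (the homeodomain core, in either orientation) in capitals.
WUS, chr2:7810812-7811061: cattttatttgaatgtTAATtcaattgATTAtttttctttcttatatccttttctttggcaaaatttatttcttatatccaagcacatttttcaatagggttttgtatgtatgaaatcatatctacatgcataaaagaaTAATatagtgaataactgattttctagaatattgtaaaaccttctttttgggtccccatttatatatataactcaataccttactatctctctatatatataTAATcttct
CLV3, chr2:11665798-11666047: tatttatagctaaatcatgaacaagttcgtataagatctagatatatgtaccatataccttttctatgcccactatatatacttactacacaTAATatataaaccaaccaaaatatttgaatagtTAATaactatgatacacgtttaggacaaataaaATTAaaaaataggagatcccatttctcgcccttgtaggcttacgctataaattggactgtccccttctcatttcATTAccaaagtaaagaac

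Each window held 4 matches to TAAT, against a median of 5 over 27443 protein-coding genes, of which 97.6% have at least 1. The longer motif TTAATGG, in 6.99% of windows, and the G-box CACGTG, in 6.49%, matched neither window. The cytokinin regulator core AGATT matched WUS at 1 place, where it overlaps the last TAAT, and had no match before CLV3, with 63.7% of windows holding it. All were searched on both strands. These matches describe letters only.

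Library depth, recovered from the deposited values, was 40.2 to 59.4 M reads without CHX and 71.3 to 106.6 M reads with it. Levels below are normalised read counts, which are reads divided by the library's size factor. Summed root markers (9 genes) ran from 6595 to 8452 in mock, and all 9 had reads, so the labelled shoots held root transcripts. Of 6 shoot meristem markers all 6 had reads, with sums of 3809 to 4208 in mock, 3835 to 4599 in EPFL6, 2155 to 2274 in CHX and 1162 to 1311 in CHX plus EPFL6. Summed leaf markers (7 genes) were 509934 to 1089700, 527020 to 959783, 310143 to 444706 and 364667 to 583273 in the same order. No marker of the 3 lists was at 0 over a whole group. RBCS1A, LHCB1.1 and LHCB1.3 made up most of each leaf sum, with mock means of 429477, 60682 and 270657. Mock means of the other leaf genes were 758 to 2069. Adding EPFL6 under CHX gave lower means for AS1 (451 to 315), YAB1 (483 to 442) and YAB3 (1220 to 837). KAN1 went the other way, from 948 to 1098, as did RBCS1A (220993 to 259617), LHCB1.1 (40603.5 to 52769.9) and LHCB1.3 (106647 to 156727). The YAB1 change was no larger than its SD of 42.4 with CHX. No test of single leaf markers is given here. Among shoot meristem genes, KNAT6 rose from 487 in mock to 948 with CHX, while the other members had lower means. The seedlings were whole-tissue samples, so fewer cells of a type and less RNA per cell cannot be told apart.

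In mock seedlings the 3 libraries gave WUS at 310, 400 and 426, from 293 to 431 reads. With EPFL6 alone they gave 122, 121 and 126, from 96 to 140 reads. Every EPFL6 library lay below every mock library, as in 3.10% of tested genes. The mean was 379 ± 60.6 (SD, n = 3) in mock and 123 ± 2.27 with EPFL6, so 32.5% of the mock level remained. The EPFL6 libraries had a coefficient of variation of 1.85%, below the 9.26% from counting error, so their SD understates the uncertainty. The log2 fold change of −1.60 ± 0.22 (SE; 95% interval −2.09 to −1.11) was the 15th most negative of 23225, but it missed the threshold over all genes (limma adjusted p = 0.090). Over 23 alternatives the adjusted p ran from 4.4e-10 (DESeq2) to 0.30, and 3 passed. Leaving out CHX plus EPFL6 replicate 1 or 3, which are not in the comparison but feed the shared variance, gave 0.019 and 0.015.

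CLV3 stood at 618, 791 and 640 in the mock libraries and at 290, 279 and 365 in the EPFL6 libraries. The groups again did not overlap, and 45.6% of the mock level remained with the peptide. CLV3 fell 2.19-fold (95% interval 1.85 to 2.60; log2 −1.13 ± 0.11, adjusted p = 0.0086), in a comparison where 0.0172% of genes were called lower. Over 23 alternatives the adjusted p ran from 2.4e-15 to 0.61, and 20 passed. The call was lost without EPFL6 replicate 2 (0.067), with a replicate block (0.058) and when only the 6 libraries compared were fitted (0.61).

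**Figure D1:**
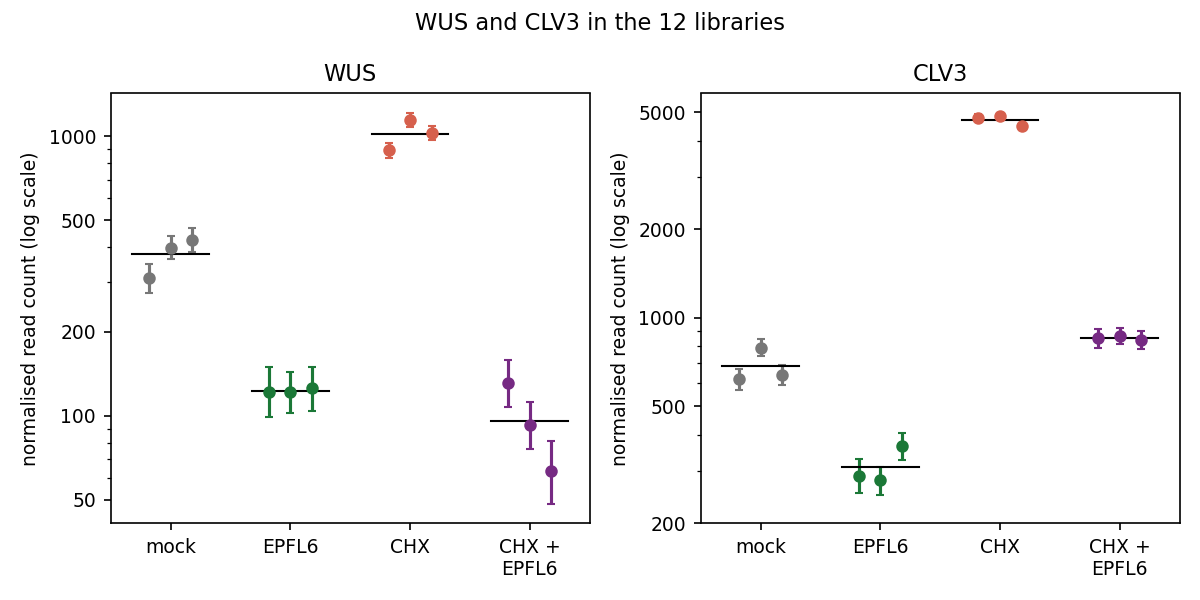
Normalised read counts of WUS and CLV3 (log axes) in each of the 12 libraries by group, with exact 95% Poisson intervals for counting error only and the group mean as a black line. Each gene is lower in all 3 EPFL6 libraries than in the 3 mock libraries, and lower in all 3 CHX plus EPFL6 libraries than in the 3 CHX libraries.

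Both genes stood higher when translation was blocked. WUS was at 891, 1141 and 1026 in the CHX libraries, and CLV3 at 4792, 4847 and 4486. Each gene lay above all mock libraries, as did 41.5% of tested genes. WUS rose 2.7-fold (95% interval 1.92 to 3.79; adjusted p = 0.00011) and CLV3 6.92-fold (5.84 to 8.21; adjusted p = 1.6e-09). CHX raised 40.9% of all tested genes and lowered 38.3%, so a call was common. WUS was the 4850th and CLV3 the 2669th most raised gene. Scaling by library size moved the median of all genes by −0.75 on the log2 scale and gave 0.68 for WUS and 2.04 for CLV3, both still past the threshold.

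With CHX present, WUS was far lower in the seedlings that also received EPFL6. Their libraries had WUS at 131, 92.6 and 63.4, from 111, 106 and 61 reads. All lay below every CHX library, as in 17.7% of tested genes. The mean of 95.7 ± 34.0 was 9.39% of the CHX mean of 1019 ± 126. WUS fell 11-fold (95% interval 7.80 to 15.4; log2 −3.45 ± 0.22, adjusted p = 1.1e-05), the 25th most negative change of 23225. The share of genes called lower was 7.63%, and called higher 5.89%.

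CLV3 was close to constant across the same libraries, at 850, 867 and 841. That was 18.1% of the CHX mean of 4708 ± 194, and CLV3 fell 5.51-fold (95% interval 4.65 to 6.54; log2 −2.46 ± 0.11, adjusted p = 2.3e-06). It ranked 96th. Both calls held in all 23 alternatives, from −3.71 to −3.19 for WUS and from −2.50 to −2.44 for CLV3. The summed shoot meristem markers were also lower in these seedlings, as given above, and root marker sums were 2719 to 3063 against 3233 to 3460 with CHX. Their part in the result was not tested.

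The change with EPFL6 was larger under CHX for both genes. The interaction, the log2 change with CHX minus the change without it, was −1.85 ± 0.31 for WUS (95% interval −2.54 to −1.16, adjusted p = 0.023) and −1.33 ± 0.16 for CLV3 (−1.68 to −0.98, adjusted p = 0.0031). The interaction was past the threshold and below 0 in 1.14% of genes, and above 0 in 0.366%. The CLV3 call held in all 22 alternatives. The WUS call held in 16 and was lost without mock replicate 1 (0.065), EPFL6 replicate 2 or 3 (0.058 for each), CHX replicate 2 or 3 (0.061 for each) or CHX plus EPFL6 replicate 2 (0.057).

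**Figure D2:**
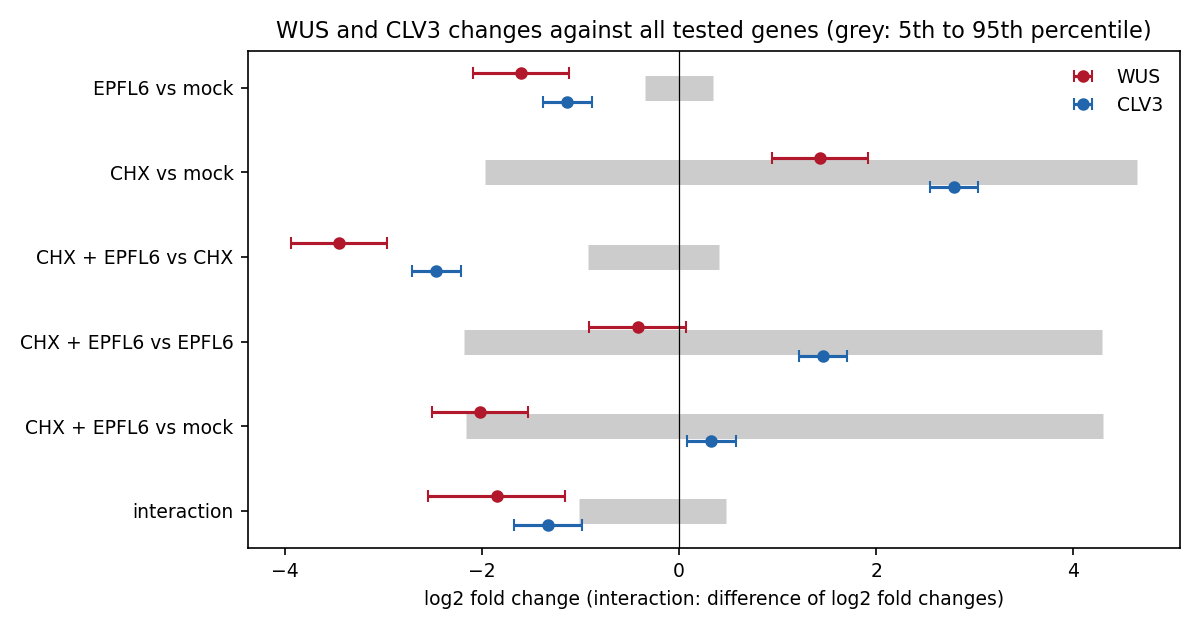
Log2 fold changes of WUS and CLV3 with 95% intervals from limma in 5 comparisons and the interaction, beside grey bars for the 5th to 95th percentile of all 23225 tested genes. The points of both genes lie below the grey bar for the interaction and for each comparison that differs in EPFL6 only, and within it for the other comparisons.

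The groups ordered differently for WUS and for CLV3. For WUS the order from low to high was CHX plus EPFL6, EPFL6, mock and CHX. The lowest neighbours overlapped, at 63.4 to 131 and 121 to 126, and did not differ past the threshold (log2 −0.42, 95% interval −0.91 to 0.07, adjusted p = 0.10). That comparison passed without CHX plus EPFL6 replicate 1 (−0.68, adjusted p = 0.0071) and with library-size scaling (−1.15, adjusted p = 0.00043). In it 77.9% of genes were called, 40.2% higher and 37.7% lower.

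For CLV3 the order was EPFL6, mock, CHX plus EPFL6 and CHX. CHX plus EPFL6 gave 2.75 times the level of EPFL6 alone (95% interval 2.32 to 3.26, adjusted p = 3.0e-07), with no overlap, as in 41.8% of genes. Against mock, the seedlings given both agents had a WUS level of 25.3% (log2 −2.02 ± 0.22, adjusted p = 6.6e-06), where 37.6% of genes were called lower and 38.6% lay below every mock library. CLV3 in them was 125% of the mock level (fold 95% interval 1.06 to 1.49, adjusted p = 0.019), where 40.0% of genes were called higher and 41.1% lay above every mock library. The CLV3 direction against mock rests on the scaling: with library size it was −0.40 (adjusted p = 0.0049). The call was also lost without mock replicate 1 (0.077) or 3 (0.061).

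Within each library CLV3 exceeded WUS, and the ratio needs no scaling between libraries. Per kilobase of exon, mock libraries held 3.03, 3.01 and 2.29 times as much CLV3 as WUS signal. EPFL6 libraries held 3.61, 3.50 and 4.42 times as much, and CHX libraries 8.19, 6.46 and 6.66 times. CHX plus EPFL6 libraries held 9.87, 14.2 and 20.2 times. No 2 groups overlapped, but the share of other gene pairs that separate in this way was not computed. Single genes often separate across CHX: with both agents, 41.1% lay above and 38.6% below every mock library. The spread in the last group came from WUS, whose coefficient of variation there was 35.5% against 10.4% from counting error, while that of CLV3 was 1.52% against 3.48%.

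STM, the KNOX homeobox gene that keeps meristem cells undifferentiated, was also set against both genes within each library. It is not a fixed reference, since its own level differed between groups. Its level was 1010 ± 40.6 in mock, 961 ± 139 with EPFL6, 521 ± 70.6 with CHX and 103 ± 36.2 with CHX plus EPFL6. The ratio of CLV3 to STM was 0.585 to 0.797 in mock and 0.296 to 0.348 with EPFL6. With CHX it was 8.42 to 10.2, and with CHX plus EPFL6 6.16 to 12.4, so the range of the first lay within that of the second. The ratio of WUS to STM was 0.294 to 0.435, 0.113 to 0.147, 1.63 to 2.32 and 0.642 to 1.91 in the same order. In CHX plus EPFL6 replicate 1 it was 1.91, within the CHX range, and in replicates 2 and 3 it was 0.658 and 0.642. Adding EPFL6 under CHX left 18.1% of CLV3 and 19.7% of STM. The other shoot meristem markers had CHX means of 336 (KNAT1), 122 (KNAT2), 948 (KNAT6), 282 (ATH1) and 10.8 (CUC2). With CHX plus EPFL6 these were 192, 69.1, 689, 177 and 4.91. Without CHX the STM change with EPFL6 was −0.08 ± 0.22 (adjusted p = 1), and 0.02 without EPFL6 replicate 1.

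**Figure D3:**
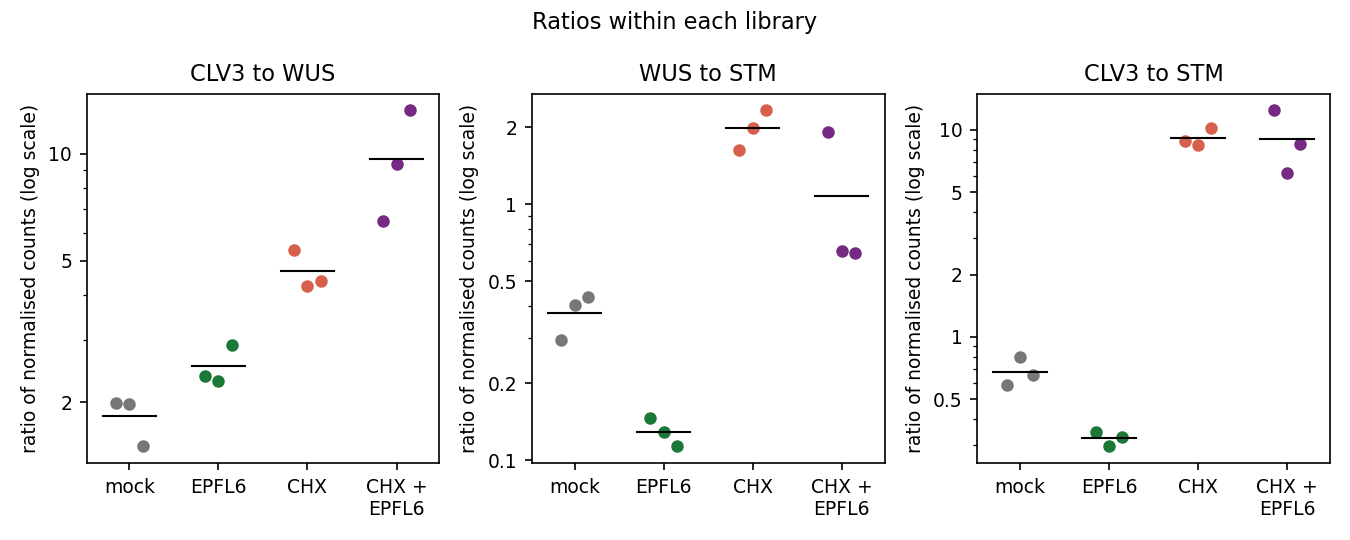
Ratios of normalised read counts, not divided by length, within each of the 12 libraries (log axes), with group means as lines. The CLV3 to WUS ratio is lowest in mock at 1.50 to 1.99 and highest in CHX plus EPFL6 at 6.49 to 13.3, and the CLV3 to STM ratio of the CHX groups overlaps.

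The genes that act around WUS and CLV3 were taken from a list of 41, of which 38 were tested. That list was drawn up with earlier results of these data known. Its shares beside those of all genes are therefore a description only. HEC2, HEC3 and KNU had at most 14 reads in any library and were not. With EPFL6 alone 0 of the 38 passed in limma, with a median log2 change of −0.01 against 0.00 over all genes, where 708 genes had an unadjusted p under 0.05. edgeR with TMM also called 0 of the 38, against 0.00861% of all genes. DESeq2 called 2, the receptor genes ERL1 and ERL2, against 0.134% of all genes. ERL1 had 432 ± 22.6 in mock and 254 ± 54.8 with EPFL6 (DESeq2 adjusted p = 0.016). ERL2 had 1183 ± 34.9 and 805 ± 120 (DESeq2 adjusted p = 0.0042).

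With CHX against mock 13 of the 38 rose and 20 fell, 86.8% against 79.2% of all genes. The type-A response regulators ARR7 and ARR5, which dampen cytokinin signalling and which WUS represses, rose by 2.39 and 1.91 on the log2 scale. Of the 4 type-A genes listed 3 rose and 1 fell, ARR6, from 1041 ± 58.0 to 755 ± 56.8. The CLV3 coreceptor gene CIK1 fell by 1.96, the bHLH gene HEC1 by 1.69 and the receptor gene BAM3 by 1.69. STM fell by 0.96.

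With CHX plus EPFL6 against CHX 2 of the 38 rose and 9 fell, and the median was −0.10 against 0.00 over all genes. The share called was 28.9%, against 13.5% of all genes. None of the 13 genes for perceiving CLV3 passed in limma. CLV1, the leucine-rich repeat receptor kinase, stood at 3248 ± 207 with CHX and 3036 ± 25.0 with CHX plus EPFL6. All 3 ERECTA receptor genes fell: ERL2 by 2.17, from 454 ± 18.3 to 100 ± 12.1, ERL1 by 1.24 and ER by 0.65 on the log2 scale.

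Among partners of WUS, STM fell by 2.38 and the corepressor gene TPL rose by 0.49, while the HAM genes, which encode GRAS partners of WUS, did not pass. Of the regulators of WUS or CLV3 transcription, AGO10, an Argonaute that keeps miR166 from its targets, fell by 0.93, from 1666 ± 187 to 871 ± 35.3. The trithorax-like factor gene ULT1 fell by 0.69, the bHLH gene SPT by 0.60 and the cytokinin receptor gene AHK4 by 0.46, and the transcription factor gene FHY3 rose by 0.18. Of the 4 type-A regulators ARR15 fell by 1.53 (adjusted p = 0.0016), from 136 ± 25.3 to 46.1 ± 7.01, and ARR5, ARR6 and ARR7 did not pass. ARR7 stood at 6352 ± 711 and 6170 ± 114.

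**Figure D4:**
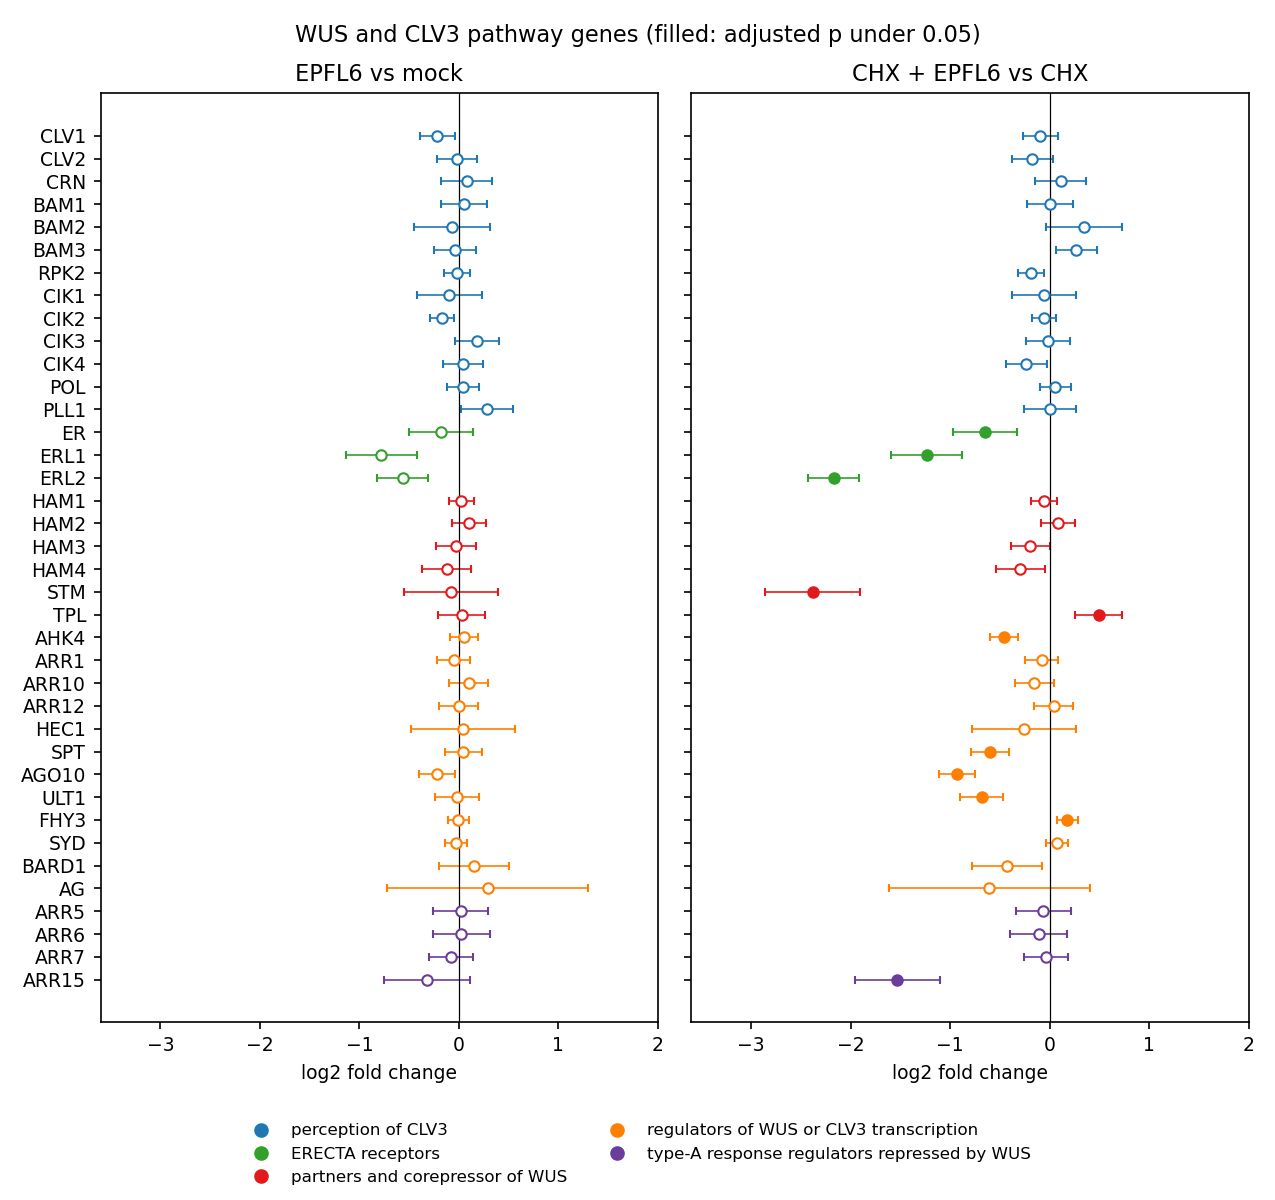
Log2 fold changes with 95% intervals of the 38 tested pathway genes for EPFL6 against mock (left) and CHX plus EPFL6 against CHX (right), coloured by role, with filled points at a limma adjusted p under 0.05. No point is filled on the left, and on the right the filled points are 9 lower genes, led by STM at −2.38 and ERL2 at −2.17, and 2 higher genes, TPL and FHY3.

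In CHX plus EPFL6 against EPFL6 alone 11 of the 38 were higher and 25 lower, where 77.9% of all genes were called. The largest changes were STM (−3.27), ERL2 (−2.99), ARR7 (2.43), HEC1 (−2.0) and AG (−1.96), the floral homeotic gene that ends stem cell activity. AG was low, at 40.2 ± 10.7 with EPFL6 and 11.3 ± 7.19 with both agents, the latter from 3 to 19 reads. Its change ran from −2.35 to −1.30 when 1 library was left out. In CHX plus EPFL6 against mock 10 of the 38 were higher and 26 lower (77.5% of all genes were called). The largest changes there were ERL2 (−3.55), STM (−3.35), ARR7 (2.35), CIK1 (−2.01) and HEC1 (−1.95). The interaction passed for 6 of the 38, all lower, which is 15.8% against 1.50% of all genes. They were STM (−2.30), ERL2 (−1.61), AGO10 (−0.71), ULT1 (−0.67), SPT (−0.64) and AHK4 (−0.51). The count ran from 2 to 8 when 1 library was left out.

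The annotated genes flanking the 2 loci gave values of their own. Downstream of WUS, AT2G17930 and AT2G17940 stood at 3428 ± 96.3 and 9.67 ± 3.13 with CHX and at 3419 ± 117 and 4.52 ± 1.25 with CHX plus EPFL6 (adjusted p = 0.97 and 0.13). Upstream, AT2G17970 stood at 740 ± 45.3 and 697 ± 13.3 (0.36), and AT2G17960 was not analysed here. Around CLV3, the upstream neighbour AT2G27260, separated from CLV3 by 3831 bases, was at 2782 ± 211 and 2091 ± 101 (log2 −0.41, adjusted p = 0.0079). Downstream, the bHLH gene LHW fell by 0.33 (adjusted p = 0.022) and AT2G27240 was too low to test. AT2G00820, the next upstream, was not analysed here. With EPFL6 alone the 5 tested neighbours had log2 changes from −0.41 to 0.07, each with an adjusted p of 1.

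The genes nearest to each member over the 12 libraries were ranked by the root mean square difference of log2 values, each gene centred on its own mean. The 8 nearest to WUS were AT1G80580 (0.40), MCT2 (0.52), AT5G11930 (0.59), AT3G59270 (0.61), TEL2 (0.70), AT4G01170 (0.72), AT1G06360 (0.74) and PCR1 (0.77), against a median of 1.49 over 23224 genes. MCT2 and TEL2 encode Mei2-like RNA-binding proteins. The mean of AT1G80580 was 118 in mock, 55.3 with EPFL6, 318 with CHX and 42.4 with both agents, the same order of groups as WUS.

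The 8 nearest to CLV3 were CKX3 (0.36), AT3G26960 (0.42), AGL51 (0.43), LFY (0.43), AT5G51800 (0.47), GA1 (0.49), the pseudogene AT3G44705 (0.51) and CYP722A1 (0.53). CKX3, which encodes a cytokinin oxidase that breaks down the hormone, stood at 195, 119, 1206 and 333 in the same order of groups. GA1, which encodes the enzyme of the first step towards gibberellin, stood at 33.7, 27.1, 224 and 72.6. AGL51 had means of 0.66 in mock, 0 with EPFL6, 17.6 with CHX and 2.41 with both agents. The floral regulator LFY had 3.66, 1.06, 25.8 and 2.94 in the same order. Both passed the filter on low values only through the CHX libraries. In the other groups they lay near the floor, so their nearness to CLV3 rests on few reads. At a difference of 0.93, CLV3 was 37th nearest to WUS, and WUS was 872nd nearest to CLV3. The libraries that make these profiles share treatments and depth, so the ranks are a description.

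**Figure D5:**
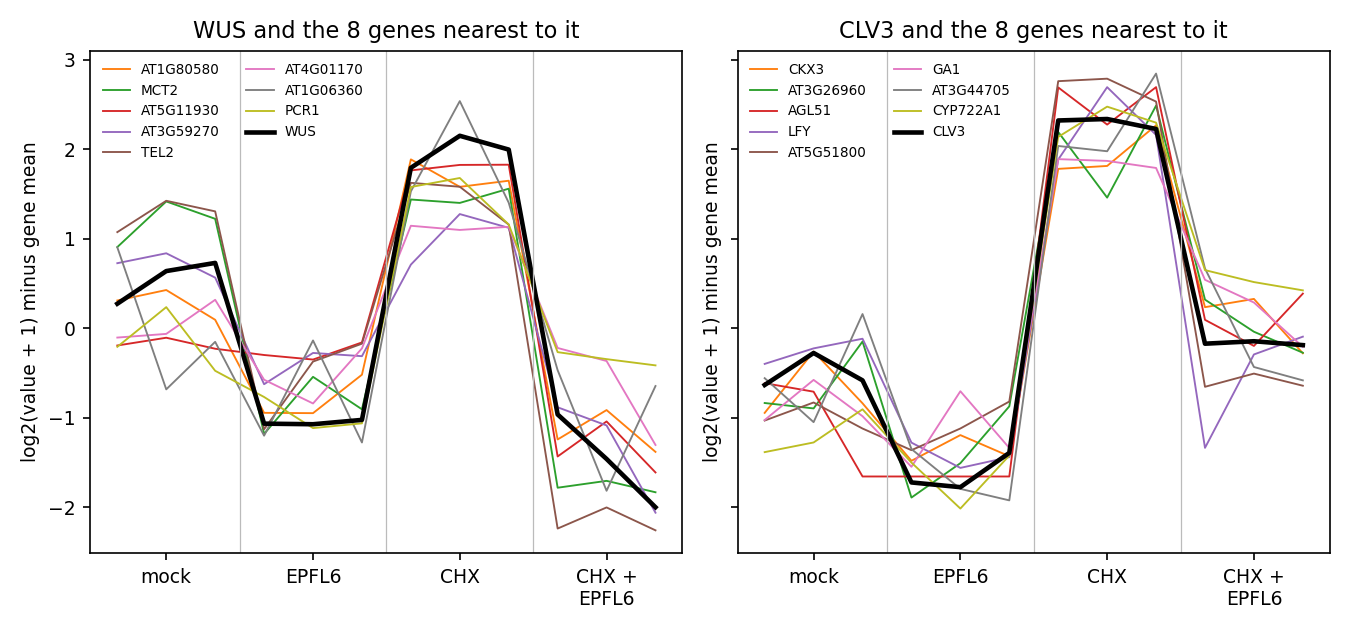
Log2(value + 1) minus the gene's own mean in the 12 libraries for WUS (left) and CLV3 (right), in black, and the 8 nearest genes of each in colour; lines only link the libraries of a gene. In the left panel the EPFL6 and the CHX plus EPFL6 libraries of WUS overlap at the bottom, and in the right panel the EPFL6 libraries of CLV3 lie lowest.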

How the data were processed

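TAIR10, STAR 2.7.6a, DESeq2 1.26.0 and featureCounts 2.0.0 are named in the submitters' processing notes. The counting mode and strand setting are not given in the sources used here. The deposited values are a read signal per gene: the authors divided reads by 1 size factor per library. 100% of values were whole multiples of the column's step within 1e-06, which gave back the reads. Loci, exon lengths and upstream windows came from RefSeq TAIR10.1, whose locus tags matched 26514 of the 26702 genes.

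A gene was tested where 3 or more libraries reached a value of 10. Limma 3.58.1 (R 4.3.3) was run on log2(value + 1), 4 groups in a single fit of 12 libraries, with trend and robust moderation. Adjusted p is Benjamini-Hochberg over 23225 genes, two-sided, threshold 0.05. Fold changes are on the log2(value + 1) scale. Alternatives included edgeR 4.0.16 and DESeq2 1.42.0 on the recovered reads. The procedure was run on simulated counts in which few genes changed, unlike CHX against mock, where 79.2% of genes were called. The interaction was not simulated. Poisson intervals (95%) cover counting error only, since reads without molecular identifiers are not independent molecules. Named pathway genes were STM and up to 5 members past the threshold with the largest changes per comparison, and further members were chosen once values had been seen. The members, lists and rules were chosen with earlier results of these data known. The labels call the libraries biological replicates.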

Additional observations from a re-analysis of the deposited data

Results flagged for a closer look

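By the interaction term, the change with EPFL6 was not the same under CHX as without it for both members and for 5 named pathway genes. WUS had an interaction of −1.85, with means of 379 in mock, 123 with EPFL6, 1019 with CHX and 95.7 with both agents. CLV3 had −1.33, with 683, 311, 4708 and 853 in the same order. STM had −2.30 and ERL2 −1.61. AGO10 had −0.71, ULT1 −0.67 and SPT −0.64, with adjusted p up to 0.060, 0.11 and 0.090 over 22 alternatives, of which 18, 7 and 13 passed. Groups of 3 libraries were not tested for outliers.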

How the results depend on the processing

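For EPFL6 against mock, DESeq2 gave WUS −1.62 past the threshold. CLV3 stayed at −1.13 but lost its call in the fit of only the groups compared and with a replicate block (adjusted p = 0.058). The replicate numbers were not taken as pairs, because not every same-numbered correlation of deviations was over 0.1 in any comparison made: −0.12 to 0.42 for mock and EPFL6, where 2 of 3 were, −0.066 to 0.24 for mock and CHX, −0.18 to 0.16 for CHX and CHX plus EPFL6, −0.12 to 0.092 for EPFL6 and both agents, and −0.22 to 0.043 for mock and both agents. EPFL6 and CHX, not compared here, had 0.11 to 0.24, with 3 of 3 over 0.1. For mock and EPFL6, 4 of 6 libraries correlated best with their own number, a hint from the data. The count was also 4 of 6 for mock and CHX and for EPFL6 and CHX. Beside both agents it was 2 of 6 for CHX, 2 of 6 for EPFL6 and 1 of 6 for mock, and it was 17 of 36 in all. Genes called for EPFL6 against mock, 4 as reported, were 2 with edgeR and TMM, 31 with DESeq2, 0 with only the groups compared (660 at an unadjusted p under 0.05) and 1 with the replicate block, and pathway genes 2 with DESeq2 against 0. For CHX plus EPFL6 against CHX 3140 genes became 4721 with DESeq2 and 1505 with only the groups compared. Interaction calls, 349, were 209 with library-size scaling, 1528 with DESeq2 and 187 with the replicate block, and pathway calls 3 with library size against 6. Library-size scaling gave WUS −1.15 between both agents and EPFL6 alone, and CLV3 −0.40 between both agents and mock, the reverse of the main fit. For both agents against mock it moved the median of all genes by −0.73. Which scaling suits these libraries was not tested, nor were other causes. Leaving out 1 library gave −1.74 to −1.51 for WUS and −1.25 to −1.02 for CLV3 (EPFL6 against mock), −0.68 to −0.16 for WUS (CHX plus EPFL6 against EPFL6), 0.26 to 0.44 for CLV3 (against mock), and −2.11 to −1.59 for the WUS interaction. Calls ran from 1 to 5 for EPFL6 against mock, 1018 to 3972 for CHX plus EPFL6 against CHX and 86 to 954 for the interaction, and pathway interaction calls from 2 to 8. STM for EPFL6 against mock ran from −0.187 to 0.0188, reversed without EPFL6 replicate 1. Between 61 and 140 WUS reads per library with EPFL6 limit that gene.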
